A study of Caenorhabditis elegans with 2 samples.

Results

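The genes described here encode the vacuolar ATPase and the mitochondrial respiratory chain with its ATP synthase. They are the protein-coding genes whose names start with vha-, atp-, nuo-, cox-, sdh-, ucr- or cyc-, and 54 genes qualified among 19865 on the nuclear chromosomes. These families were chosen with earlier results of these data known. There were 20 vha, 5 atp, 6 nuo, 15 cox, 5 ucr and 3 cyc genes, and no gene name started with sdh-. They were examined for chromatin immunoprecipitation sites of EGL-13, a SoxD-type transcription factor, in Caenorhabditis elegans. The material was whole hermaphrodite L1 larvae of strain GOU883, collected 6 hours after synchronization by starvation, in which EGL-13 carried a C-terminal GFP-FLAG tag and was recovered with an antibody to GFP. The 2 libraries, biological replicates 3 and 4, formed 1 group without a contrast of conditions. Larvae were taken whole, so the cells in which a site was occupied are not known from these data. The lists carry no read totals, so sequencing depth is unknown.

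The vacuolar ATPase is a rotary proton pump that acidifies lysosomes and other compartments. Its V1 sector in the cytosol hydrolyses ATP and its V0 sector in the membrane carries the protons. The respiratory chain passes electrons from complexes I and II through complex III and cytochrome c to complex IV, the cytochrome c oxidase, and builds the proton gradient that the mitochondrial ATP synthase uses to make ATP. Both machines are needed in nearly every animal cell.

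A site was the summit of a region in the authors' optimal list of 2294 reproducible regions, lying from 1000 bp upstream to 200 bp downstream of any annotated 5′ end of the gene. This stretch is called the promoter window. The signal value of each region is the authors' own and its scale is not given, so it serves here to order regions within a list. The windows of 22 of the 54 genes (40.7%) held at least 1 site, against 8.46% of all 19865 genes. With 1 group of 2 libraries and genes chosen with earlier results known, these shares are descriptions without a test. The 22 genes had 24 distinct sites, since cox-6A and cox-6B had 2 each.

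The DNA around 8 of the summits is printed to show what the sites look like. They are the strongest site (cox-5A), those with the most motif matches (ucr-2.2, ucr-2.1 and cyc-2.1), examples from the other complexes (atp-2, vha-12 and vha-8), and a site without any match and with the lowest GC content (cox-6C). Each is the 101 bp centred on the summit, on WBcel235 (ce11) and written 5′ to 3′ on the strand of the gene. Capitals mark matches, on either strand, to the 6 motifs counted further on, which are AACAAT (the core of SOX sites), the repeat GAGAGA, the E-box CACGTG, the GC-rich CCGCCC, the CRE-type TGACGT, and GACGCA, which was taken from earlier results of these data. Adjacent matches run together.
cox-5A (III:12905153-12905253, plus strand): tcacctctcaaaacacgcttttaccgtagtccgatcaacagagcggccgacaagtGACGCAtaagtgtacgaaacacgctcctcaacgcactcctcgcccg
ucr-2.2 (X:15173650-15173750, plus strand): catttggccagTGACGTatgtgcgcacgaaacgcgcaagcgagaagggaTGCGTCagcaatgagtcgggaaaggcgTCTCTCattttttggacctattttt
ucr-2.1 (X:12018133-12018233, plus strand): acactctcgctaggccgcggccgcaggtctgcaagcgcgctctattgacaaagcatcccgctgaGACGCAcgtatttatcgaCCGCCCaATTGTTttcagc
cyc-2.1 (IV:4748519-4748619, minus strand): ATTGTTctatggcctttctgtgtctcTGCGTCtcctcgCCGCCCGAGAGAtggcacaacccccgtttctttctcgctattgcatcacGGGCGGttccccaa
atp-2 (III:5228111-5228211, plus strand): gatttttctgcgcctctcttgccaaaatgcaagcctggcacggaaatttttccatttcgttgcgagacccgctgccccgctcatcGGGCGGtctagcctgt
vha-12 (X:4190678-4190778, plus strand): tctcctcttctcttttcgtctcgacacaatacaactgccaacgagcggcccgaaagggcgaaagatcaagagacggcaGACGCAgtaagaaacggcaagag
vha-8 (IV:6790580-6790680, plus strand): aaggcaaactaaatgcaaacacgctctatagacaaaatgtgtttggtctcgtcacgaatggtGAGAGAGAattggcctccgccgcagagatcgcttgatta
cox-6C (IV:126404-126504, plus strand): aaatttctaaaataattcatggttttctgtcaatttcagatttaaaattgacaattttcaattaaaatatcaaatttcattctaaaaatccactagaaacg

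The GC content of these 101 bp windows ran from 20.8% at cox-6C to 57.4% at ucr-2.1. The 24 sites had a median of 50.5%, against 47.5% for all 1303 optimal sites in promoter windows, and 59.4% at the highest, at atp-1. The cox-6C site thus stood apart from the 8 sequences printed by its long runs of A and T.

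Among the groups compared, the structural subunits of complex IV, taken apart from its assembly factors, had sites most often. They had one at 6 of 7 genes, complex III at 4 of 6, the ATP synthase at 3 of 5 and the V1 sector at 4 of 9. Lower counts were those of the complex IV assembly factors (2 of 8), complex I (1 of 6) and the V0 sector (1 of 9). The 2 accessory vacuolar ATPase genes, vha-19 and vha-20, had none. Of all 19865 genes 8.46% had a site, so the V0 share (11.1%) was near that of all genes, and the complex I share (16.7%) rests on 1 gene. Of the cytochrome c genes, cyc-2.1 had a site and cyc-2.2 did not. The whole vacuolar ATPase had 5 of 20 and the respiratory chain without the ATP synthase 14 of 29. Complex IV with its assembly factors had 8 of 15 (53.3%), a share below those of complex III (66.7%) and the ATP synthase (60.0%). Its split into subunits and assembly factors was set after the files had been seen. The groups are small and their difference was not tested.

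**Figure D1:**
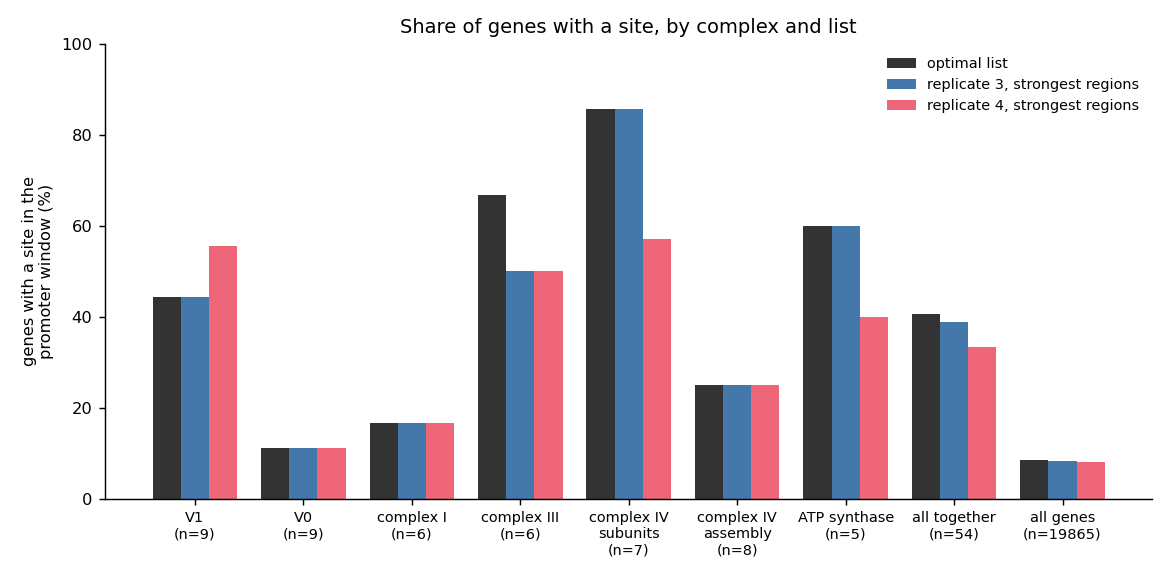
Percentage of genes with a site in the promoter window (vertical axis) for each complex, for all 54 genes together and for all 19865 protein-coding genes; the black bar is the optimal list, and the blue and red bars are the 2294 strongest regions of replicates 3 and 4. Complex IV subunits reach 85.7% in the optimal list and in replicate 3 and 57.1% in replicate 4, while complex I is at 16.7% and V0 at 11.1% in all 3 lists.

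Each replicate list was also counted alone. In the 2294 strongest of the 30000 regions of replicate 3, 21 of the 54 genes had a region in the window, against 8.29% of all genes. In replicate 4 there were 18, against 8.0% of all genes. The gap came from complex IV subunits (6 genes in replicate 3, 4 in replicate 4), the ATP synthase (3 and 2) and cytochrome c (1 and 0), while V1 had more in replicate 4 (4 and 5).

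**Figure D2:**
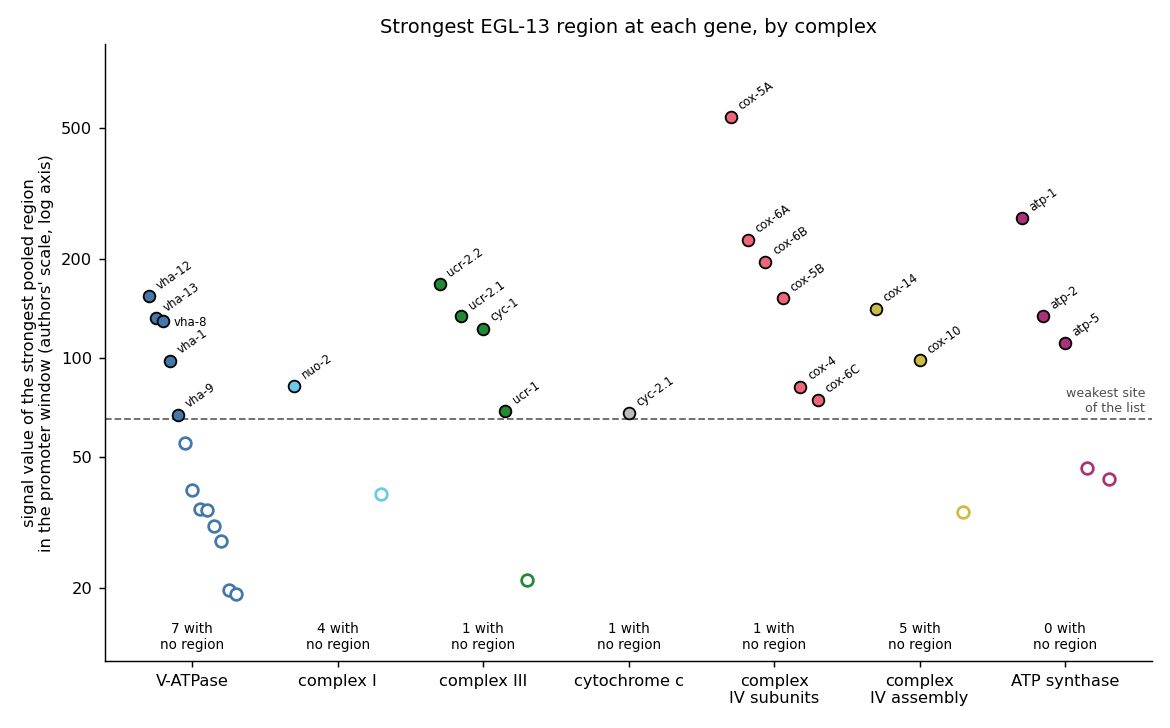
Signal value of the strongest pooled region in the promoter window of each gene (vertical log axis), by complex; filled circles are in the optimal list, open circles are pooled regions below it, and the counts at the bottom are genes with no region. The dashed line is the weakest optimal site, at 65.3, and cox-5A stands highest at 541.

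Complex IV, cytochrome c oxidase, is the last complex of the chain and hands electrons to oxygen. Its subunit gene cox-5A carried the strongest site of all 54 genes, with a signal value of 541 and rank 27 of 2294. It ranked 25 in replicate 3, with a signal value of 346, and 30 in replicate 4, with 197, so both libraries placed it near the top. The region lay on chromosome III from 12905093 to 12905314, between genes, with its summit 288 bp upstream of the 5′ end of cox-5A (WBGene00012553, III:12905491-12906619, plus strand), and in no other promoter window.

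cox-6A, another subunit gene, had 2 sites. The stronger, III:5080907-5081039, had a signal value of 229 and ranked 288 in replicate 3 and 285 in replicate 4. Its summit lay 736 bp upstream of the gene and within 200 bp of F54D8.7, an snRNA gene. The weaker site, III:5080995-5081378, lay 537 bp upstream with a signal value of 89.4, and ranked 1266 and 893 in the replicates. The 2 regions overlap, and the weaker one alone would keep cox-6A among the genes with a site. What part F54D8.7 has in the stronger one was not tested.

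cox-6B has 2 annotated 5′ ends that lie 86539 bp apart, and a site lay upstream of each. The site of the distal end, III:2698890-2699013, lay 712 bp upstream of it with a signal value of 170, and 134 bp upstream of slc-30A9. The site of the proximal end, III:2785983-2786119, lay 156 bp upstream of it with a signal value of 196, inside an intron of the long transcript. It also lay 98 bp upstream of Y71H2AM.20 and 806 bp upstream of nduc-2. The ranks were 547 and 478 in replicates 3 and 4 for the distal site and 523 and 246 for the proximal site, so both sites were among the strongest regions of both libraries.

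The other 3 subunit genes with a site had 1 each. The cox-5B site (signal value 152) lay 41 bp upstream of the nearest of its 2 5′ ends and ranked 640 and 528 in replicates 3 and 4. Replicate 4 gave less support to cox-4 and cox-6C. The cox-4 site (signal value 81.7, 391 bp upstream) ranked 1352 in replicate 3 and 7740 in replicate 4, and the cox-6C site (74.7, 277 bp upstream) ranked 1546 and 4090. Thus the strongest site of 4 of the 6 subunit genes was in the top 2294 of each library. The remaining subunit gene, cox-7C, had no pooled region in its window.

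Assembly factors insert the haem and copper groups into complex IV or help its subunits come together. Of the 8 genes so named, cox-14, annotated as cytochrome c oxidase assembly factor 3, and cox-10, which encodes the protoheme IX farnesyltransferase, had sites. The cox-14 site had a signal value of 141, lay 156 bp upstream of cox-14 and 140 bp upstream of rde-4, and ranked 916 in replicate 3 and 445 in replicate 4. The cox-10 site had a signal value of 98.5, lay 126 bp upstream of cox-10 and 182 bp upstream of Y38E10A.33, and ranked 1041 and 1716. Of the other 6 genes, cox-16 had a weak pooled region (34.0), and cox-11, cox-15, cox-17, cox-18 and cox-19 had none.

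Complex III takes electrons from ubiquinol and passes them to cytochrome c. ucr-2.2, one of the peptidase M16-type core subunit genes, had its strongest site (signal value 168, 204 bp upstream), ranked 652 in replicate 3 and 363 in replicate 4. The related ucr-2.1 had a site with a signal value of 134, 246 bp upstream, ranked 657 and 1105, which also lay 140 bp upstream of nmat-1. The cyc-1 site, at the gene for the cytochrome c1 subunit, had a signal value of 123, lay 311 bp upstream and ranked 978 and 2059. The site of ucr-1, which encodes core subunit 1, was close to the end of the list, with a signal value of 69.1 and rank 2119. It ranked 2985 and 2714 in the replicates and so was among the strongest regions of neither. The third gene of the ucr-2 family, ucr-2.3, had no pooled region in its window, and ucr-11, the gene of a small subunit, had one with a signal value of 21.2.

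Cytochrome c carries electrons from complex III to complex IV, and C. elegans has 2 genes for it. The cyc-2.1 site had a signal value of 68.2, was 120 bp upstream of the nearer of 2 5′ ends that lie 563 bp apart, inside an intron of the longer transcript, and was also 737 bp upstream of tctn-1. It ranked 1910 in replicate 3 and 2665 in replicate 4, outside the strongest 2294 of the latter. cyc-2.2 had no region in the pooled list or in either replicate list.

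Complex I, the NADH dehydrogenase, takes electrons from NADH, and 1 of its 6 nuo genes had a site. nuo-2, annotated as NADH dehydrogenase iron-sulfur protein 3, had its site 131 bp upstream with a signal value of 82.3, ranked 1733 in replicate 3 and 1333 in replicate 4. That summit lay in the 3′ UTR of T10E9.14, the neighbour on the same strand, whose end is 19 bp from nuo-2. nuo-1 had a weaker pooled region (38.8), and nuo-3, nuo-4, nuo-5 and nuo-6 had none.

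The ATP synthase has a catalytic F1 head built of alpha and beta subunits and a stalk that joins it to the membrane. atp-1, the alpha subunit gene, had a signal value of 267 and the second-highest rank of the 54 genes, at 198. It ranked 252 in replicate 3 and 137 in replicate 4, and its summit also lay 182 bp upstream of mcrs-1. atp-2, the beta subunit gene, had a signal value of 134 and ranked 536 and 1874. Its summit lay 256 bp upstream of atp-2, 277 bp upstream of C34E10.10 and 280 bp upstream of C34E10.12. The atp-5 site, at the gene for subunit d, had a signal value of 111 and ranked 727 and 3616, and its nearest 5′ end was that of lmtr-3 at 60 bp rather than that of atp-5 at 259 bp. The genes of the oligomycin sensitivity conferral protein (atp-3) and coupling factor 6 (atp-4) had pooled regions below the list, with signal values of 46.3 and 42.9.

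In the vacuolar ATPase, 4 of the 5 sites belonged to genes of the V1 sector. vha-12, a B subunit gene, had the strongest (signal value 154, 366 bp upstream), ranked 618 in replicate 3 and 578 in replicate 4. vha-13, the gene of the catalytic A subunit, had a signal value of 132, with the summit 552 bp upstream in the 3′ UTR of the preceding gene cept-2, and ranked 633 and 1744. vha-8, the E subunit gene, had 130, 444 bp upstream of vha-8 and 142 bp upstream of C17H12.2, and ranked 700 and 1080. vha-9, the F subunit gene, had the weakest site of the 22 genes, with a signal value of 67.2 and rank 2202, 231 bp upstream, and ranked 2328 and 1718.

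The remaining V1 genes had no optimal site. vha-15, an H subunit gene, came nearest with a pooled signal value of 55.4 and rank 2919. It had a region of rank 2225 in replicate 3 and 1482 in replicate 4, within the strongest 2294 of both, with summits 111 bp apart. Of the others, vha-14 (D subunit) had a pooled region of 19.2, and vha-10 (G), vha-11 (C) and vha-18 (H) had none.

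In the V0 sector, the site belonged to vha-1, which encodes a proteolipid c subunit of the rotating ring. It had a signal value of 98.2, lay 406 bp upstream of vha-1 and 494 bp upstream of sqv-3, and ranked 1583 in replicate 3 and 1740 in replicate 4. vha-2, another proteolipid gene, starts 400 bp beyond the end of vha-1 on the same strand, and the summit lay 1316 bp from its 5′ end. The other ring genes, vha-3 and vha-4, had no pooled region. Of the 3 vha genes for the large a subunit, vha-6 had no region, and vha-5 and vha-7 had 19.8 and 27.9. A further a subunit gene, unc-32, is counted below with genes under other names. vha-16 (39.8), vha-17, which encodes subunit e (34.8), and vha-2 (34.7) had regions below the list. Among the accessory genes, vha-20 had 30.9 and vha-19 had none.

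Below the optimal list, 13 genes had a weaker pooled region and 19 had none. Any of the 30000 pooled regions was found in the windows of 35 genes (64.8%), against 43.1% of all genes. The members just inside the list were vha-9 (67.2), cyc-2.1 (68.2), ucr-1 (69.1) and cox-6C (74.7), and those just outside were vha-15 (55.4), atp-3 (46.3), atp-4 (42.9) and vha-16 (39.8).

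**Figure D3:**
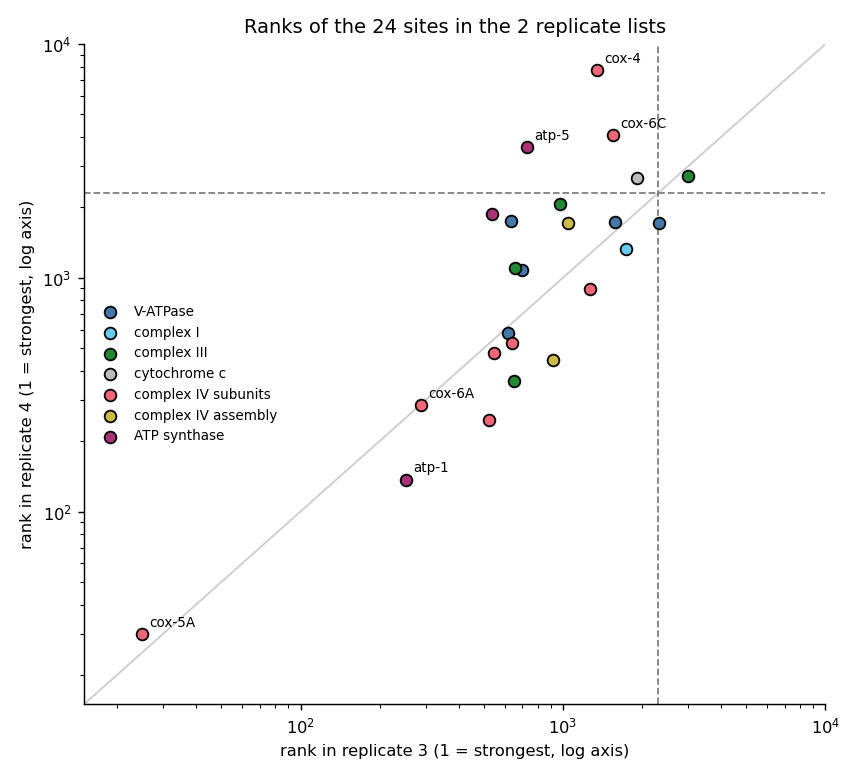
Rank of each of the 24 sites in replicate 3 (horizontal log axis) and replicate 4 (vertical log axis), coloured by complex; dashed lines mark rank 2294 and the grey line equal ranks. cox-5A lies at 25 and 30, while atp-5, cox-6C and cox-4 lie above the horizontal line, at ranks 3616, 4090 and 7740 in replicate 4.

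All 24 sites had a summit within 100 bp in both replicate lists. Of all 1303 promoter sites, 1281 had one in replicate 3 and 1239 in replicate 4. The optimal list derives from both replicates, so such matches are not separate support. Among the strongest 2294 of both replicates were 18 of the 24 sites (75%), against 67.4% of all 1303 promoter sites. The rest were 4 in replicate 3 only (atp-5, cox-4, cox-6C and cyc-2.1), 1 in replicate 4 only (vha-9) and 1 in neither (ucr-1). By gene, 16 of 22 (72.7%) had their strongest site in both, against 70.3% of the 1681 genes with a site. Across the 24 sites the signal values of the replicates had a Spearman rho of 0.692, against 0.667 over 1218 promoter sites found in both lists. The sites share their libraries, so this is a description.

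The strength and place of the sites were set beside those of all genes with a site, without a test. The strongest site of each of the 22 genes had a median signal value of 131, against 116 over all 1681 genes with a site. Of these 22, 14 (63.6%) were in the stronger 50% of the list, against 60.2% of the 1681. All 22 lay upstream, as did 96.2% of those of the 1681 genes. Their distances ran from 8 bp (atp-1) to 736 bp (cox-6A), with a median distance of 251 bp against 244 bp. From 0 to 400 bp upstream lay 18 of the 22 (81.8%), against 67.8% of all genes with a site. Of the 24 summits, 20 lay between protein-coding genes, 2 in a 3′ UTR of the preceding gene (vha-13 and nuo-2) and 2 in an intron of the gene itself (cox-6B and cyc-2.1).

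**Figure D4:**
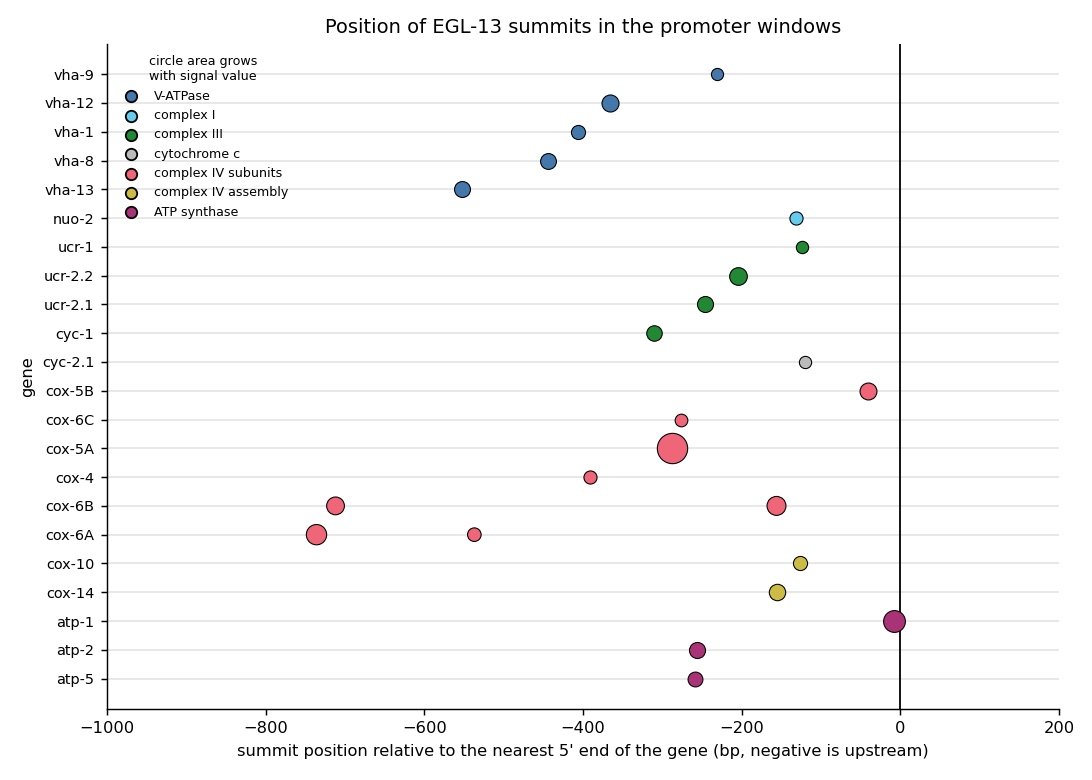
Position of each summit relative to the nearest 5′ end of the gene, in bp with negative values upstream (horizontal axis), for the 22 genes with a site (vertical axis), coloured by complex with circle area growing with signal value. All summits are upstream, and those of atp-1 (8 bp) and cox-5B (41 bp) are the closest to the 5′ end.

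Many of these sites were shared with a neighbour, as is common in the compact worm genome. The strongest site of 12 of the 22 genes (54.5%) also lay in the promoter window of another gene, against 52.6% of all genes with a site. In 11 of the 22 (50%) the window of a gene on the opposite strand held it too, against 48.7%. For 6 of the 24 sites another gene had the nearer 5′ end. A site in a shared window cannot be assigned to either gene from these data.

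Worm genes often lie close together on 1 strand, and some such runs are operons, transcribed from the promoter of the first gene. A run was taken as neighbours on the same strand with gaps of up to 500 bp, a definition made after the values had been seen. Operon annotation was not used here. By it, 18 of the 54 genes were not first in their run. Of these, 6 had a site in their own window (33.3%), against 5.76% of all 3543 genes not first in a run, and 12 did not. For 7 of the 12 (58.3%), the first gene of the run had a site, against 16.8% of 3339 such genes in the whole genome. Of the 36 genes first in their run or alone, 16 had a site (44.4%), against 9.05% of all genes so placed.

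The 7 genes were cox-11, cox-18, cox-15, nuo-4, ucr-11, vha-20 and vha-2. cox-11 is in a run headed by lin-54, whose site had a signal value of 412 and ranked 58 in replicate 3 and 60 in replicate 4. The head of the cox-18 run, Y55F3AR.2, had 370, ranked 129 and 43. For nuo-4 it was syf-2 (204), for ucr-11 dad-1 (198), for vha-20 sym-4 (116), for vha-2 vha-1 (98.2) and for cox-15 rpn-9 (81.4). The rpn-9 site had no replicate 3 summit within 100 bp. These sites lay from 1306 to 5370 bp from the 5′ ends of the 7 genes. With them counted, complex IV assembly factors came to 5 of 8 genes, and 29 of the 54 genes had a site of their own or at the head of the run, against 11.3% of all 19865 genes counted in the same way.

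Short motifs were counted around the summits, beside all optimal promoter sites and all promoters. GACGCA lay within 50 bp of the summit at 6 of 24 sites (25%), against 18.1% of all optimal promoter sites. As a baseline, it was in 2.79% of 101 bp windows centred 250 bp upstream of every gene. The motif was taken from earlier results of these data, so a share above this baseline is not separate support. GACGCA was at the sites of cox-5A, vha-12, ucr-1, ucr-2.1, ucr-2.2 and cyc-2.1. CCGCCC lay at 6 sites (25%, against 5.99% and 2.15%), those of atp-1, atp-2, vha-9, ucr-1, ucr-2.1 and cyc-2.1. GAGAGA lay at 5 sites (20.8%, against 22.1% and 6.47%), those of vha-8, vha-13, ucr-2.2, cox-6B and cyc-2.1. AACAAT, the core of the sequence known for SOX HMG boxes, lay at 4 (16.7%, against 6.45% and 13.5%), those of vha-9, ucr-2.1, cox-6B and cyc-2.1. Its share of the 24 sites was 0% within 25 bp of the summit and 20.8% within 100 bp. TGACGT lay at 1, ucr-2.2 (4.17%, against 6.37% and 3.26%), and CACGTG at none of the 24, where promoter sites had 3.84% and all promoters 1.57%. With 24 sites, counts this small say little of any motif by itself, and a match is not shown to be bound.

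Genes of the same pathways under other names were counted in the same way. Of 21 other genes of the oxidative phosphorylation complexes, 9 had a site (42.9%), against 8.46% of all 19865 genes. The list holds 2 genes of ATPase inhibitor proteins, mai-1 and mai-2, which are not subunits, and without them 8 of 19 had one (42.1%). Complex II, which had no gene under the sdh- prefix, had sites at 2 of 5 genes, sdha-1 (signal value 151), the flavoprotein subunit gene, and mev-1 (122), the cytochrome b subunit gene. Complex I had 4 of 8 listed under other names, nduf-2.2 (128), nduf-11 (108), nduf-6 (106) and nduf-7 (91.2). With the nuo genes it came to 5 of 14 listed genes (35.7%). The lists are not complete, and nduc-2, which shares a cox-6B site, is not on them. The ATP synthase had 3 of 7, asb-2 (110), mai-1 (87.5) and asg-2 (71.1), and 6 of 12 in all. Without the inhibitor genes it had 2 of 5, and 5 of 10 in all. isp-1, the Rieske protein gene of complex III, had no site. Nor had unc-32 and spe-5, the 2 vacuolar ATPase subunit genes under other names, although unc-32 had a pooled region just below the list, with a signal value of 63.8 and rank 2374.

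Further from the chain, sco-1, a copper chaperone gene of complex IV, had a site of signal value 389 and rank 64, stronger than any of the 22 genes but cox-5A. With nuaf-1 (79.1), 2 of 5 assembly genes under other names had sites. The ubiquinone and ADP/ATP carrier genes had 3 of 12, ant-1.1 (257), coq-3 (78.5) and coq-5 (69.1). The pyruvate dehydrogenase and citric acid cycle genes had 6 of 19 (31.6%), dld-1 (209), aco-2 (187), mdh-2 (134), idhb-1 (116), idhg-1 (90.8) and sucl-1 (86.9). hlh-30, which encodes a TFEB-type regulator of lysosomal genes, had a site of 165, alone among 5 regulators listed. In all, 21 of 64 genes of these lists (32.8%) had a site, against 8.46% of all 19865 genes. egl-13 itself had neither an optimal site nor a pooled region in its promoter window.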

How the data were processed

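Chromatin immunoprecipitation followed by sequencing was measured in 2 libraries of 1 group. The authors deposited regions in narrowPeak format, per the deposited file descriptions: 30000 regions per replicate, 30000 called on both replicates pooled, and 2294 optimal regions after an IDR threshold, all made with a control. The sources used here do not name the peak caller, the aligner or the threshold. All 2294 optimal regions were the strongest pooled ones.

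The signal value deposited by the authors ordered regions within a list, and the summit offset, deposited in the files as another column, gave the summit. The −log10 q value deposited by the authors was tied at its maximum, 3.36, for 15 of the 24 sites and was not used. Lists on ce10 were not used here.

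Genes, 5′ ends of all their transcripts and products came from Ensembl release 115 and RefSeq on WBcel235, which is ce11. Summits within 100 bp in another list counted as the same site, and the strongest 2294 regions stood for each replicate. Every gene with a site was named, as were, in each complex, the 2 strongest without one, the genes sharing a site and list genes with one. The genes and lists were chosen with earlier results of these data known, and which genes count as V1, V0 or assembly factors, the runs and the comparison of each gene's strongest site were set after the files had been seen. Shares are counts without a test. Read depth is unknown. Assignment of summits recovered 200 of 200 sites planted inside simulated windows, which checks the code and not the assignment of real sites. Python 3.11.15, NumPy 2.4.6, pandas 2.3.3, SciPy 1.17.1 and matplotlib 3.10.9 were used.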

Additional observations from a re-analysis of the deposited data

How the results depend on the processing

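The count of genes with a site stayed between 16 and 29 of 54, within 1.5 times 22, under most other settings tried. These were the other windows, nearest or outermost 5′ ends, region overlap, both replicates, noncoding genes, run heads and 4588 pooled regions. Under them the share of all genes ran from 5.98% (top of both replicates) to 13.4% (4588 pooled regions). Without assembly and accessory factors the count was 20 of 44 genes. In the stronger 50% of the list it was 14 of 54 (vacuolar ATPase 3, V0 0, respiratory chain 8, complex I 0, complex IV assembly 1, all genes 5.09%). With all pooled regions it was 35 (vacuolar ATPase 13, V0 6, complex I 2, ATP synthase 5, all genes 43.1%), and with 4588 pooled regions the ATP synthase had 5 and all genes 13.4%. V0 had 2 with a 2000 bp window (all genes 10.9%). With the nearest 5′ end only, complex IV assembly had 1 (all genes 6.22%). When a site at the head of a run counted, an alternative chosen after seeing the data, V0 had 2, complex I 2 and complex IV assembly 5 (all genes 11.3%). Within 25 bp of the summit, AACAAT was at 0% of the 24 sites, CCGCCC at 8.33%, TGACGT at 0% and GAGAGA at 12.5%, and within 100 bp GAGAGA was at 33.3% and TGACGT at 8.33%. Without replicate 3 or replicate 4 the counts ran from 18 to 21 for all 54 genes, 5 to 6 for the vacuolar ATPase, 10 to 13 for the respiratory chain and 2 to 3 for the ATP synthase. No paired analysis was possible because there is 1 group and no contrast. With 5 to 9 genes in most complexes, 1 gene moves a share by over 10 percentage points. Read totals are unknown, so what depth limits could not be assessed.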
